A study of Mus musculus with 2 samples.

Results

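The cells described here are 304 of the 7642 cell barcodes of 2 droplet-based single-cell RNA libraries that passed limits on depth and mitochondrial RNA, chosen because they held RNA of genes that mark conventional dendritic cells of type 2 (DC2). A barcode was taken where its unique molecular identifiers (UMIs, counts of single RNA molecules) of Cd209a, Flt3 and Kmo summed to at least 3, those of the mature dendritic cell genes Ccr7, Fscn1, Cacnb3 and Nudt17 to at most 2, those of the plasmacytoid genes Siglech, Ccr9 and Cox6a2 to at most 1, those of the C1q genes of macrophages to at most 5, and where no UMI of Cd3d, Cd3e or Cd3g was present. They are called DC2-rule cells below. There were 126 of 3211 barcodes in the wild-type (WT) library, 3.92% [3.28 to 4.65], and 178 of 4431 in the CD94-KO library, 4.02% [3.46 to 4.64]. The limits had kept 3211 of 5358 WT and 4431 of 5175 CD94-KO barcodes, so they removed more of the WT library. At least 1000 UMIs were present in 3740 and 4679. The part of this gap in the shares was not tested. Brackets throughout give 95% intervals for counting error only.

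The study sorted live leukocytes, by an antibody to the leukocyte antigen CD45, from subcutaneous tumours of C57BL/6J mice aged 6 to 8 weeks. One group was WT and the other lacked CD94, the product of Klrd1, on the same strain background, and both carried a tumour. Each group gave 1 library from 5 tumour-bearing mice, and no barcode could be traced to a mouse, so no difference between genotypes could be set against a spread between animals. The tumour line and the part of Klrd1 that was altered were not given in the sources used here.

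Conventional dendritic cells take up antigen in tissues and present it to T cells. The DC2 branch depends on the transcription factor IRF4 and presents chiefly on MHC class II to CD4+ T cells, while the DC1 branch depends on IRF8 and BATF3 and cross-presents to CD8+ T cells. In inflamed tissue, monocytes can take on a dendritic form that shares Cd209a, Mgl2 and MHC class II with DC2, and a dendritic cell that has matured turns on Ccr7 and migrates to the lymph node. CD94 itself is known as a receptor chain of natural killer (NK) cells.

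Cd209a encodes a lectin of the DC-SIGN family, and Kmo encodes kynurenine 3-monooxygenase, an enzyme of tryptophan breakdown. At least 3 UMIs of Cd209a were present in 81.7% of the WT and 82.0% of the CD94-KO cells, and of Kmo in 14.3% and 12.4%. The 250 bases before the RefSeq start of each are shown, 5′ to 3′, on GRCm38.p6. The Cd209a window lies at chr8:3748985-3749234 on the minus strand and the Kmo window at chr1:175631943-175632192 on the plus strand. Capitals mark GAGGAA, a letter string bound by PU.1, searched on both strands.
Cd209a: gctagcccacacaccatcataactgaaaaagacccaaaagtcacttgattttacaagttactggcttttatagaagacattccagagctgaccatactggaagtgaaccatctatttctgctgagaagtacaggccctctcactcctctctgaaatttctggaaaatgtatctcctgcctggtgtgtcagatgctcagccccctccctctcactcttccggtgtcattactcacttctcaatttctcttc
Kmo: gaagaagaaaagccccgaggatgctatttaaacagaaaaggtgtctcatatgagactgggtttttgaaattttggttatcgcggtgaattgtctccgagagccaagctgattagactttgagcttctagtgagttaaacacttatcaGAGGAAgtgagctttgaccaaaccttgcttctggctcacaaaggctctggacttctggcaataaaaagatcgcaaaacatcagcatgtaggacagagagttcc
The Kmo window holds 1 match to GAGGAA, a string found in 23.3% of 32851 promoter windows of RefSeq, and the Cd209a window holds 0. The windows of Flt3 and Itgax, not shown, also hold 0. A match is a description of the letters and no evidence of binding. The Kmo window lies inside the longer gene model that the GENCODE annotation gives (chromosome 1, 175620381 to 175662116).

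The genes that chose the cells were spread unevenly over them. A Cd209a UMI was present in 88.1% of the WT and 89.3% of the CD94-KO cells, a Kmo UMI in 45.2% and 48.9%, and a UMI of Flt3, the receptor for the growth factor that sustains dendritic cells, in 31.7% and 34.3%. The median sum of the 3 genes was 11 UMIs in WT and 9 in CD94-KO, with a highest value of 57 and 56. Cells with the smallest sum allowed, 3, numbered 11 in WT and 24 in CD94-KO. Those just outside, with a sum of 2, numbered 22 and 45. On summed UMIs scaled to counts per 1000000 (CPM), H2-Aa, the alpha chain of the class II molecule I-A, was 9741 and 8013 CPM just inside the limit and 6673 and 5228 CPM just outside it. Lyz2, the lysozyme of monocytes and macrophages, was 1445 and 3853 CPM inside and 3735 and 7647 CPM outside. These values describe the rule and are not findings.

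The cells were deep enough to be read one by one only for abundant genes. Their median depth was 12010 UMIs in WT and 11408 in CD94-KO, and together they held 1631529 and 2191122 UMIs. With 0 UMIs a gene could still be present at up to 1.84 CPM in WT and 1.37 CPM in CD94-KO, the level of 3 counts. The libraries shared 8 barcodes, none of them a DC2-rule cell. Further populations were taken by similar rules for comparison: macrophages with at least 20 C1q UMIs (204 WT and 403 CD94-KO barcodes), monocytes with Lyz2 and Ly6c2, Hp or F13a1 (469 and 949), and mature dendritic cells with at least 5 UMIs of the mature genes (154 and 209). The last group also took in cells with Fscn1 and RNA of connective tissue, and held 1376 and 869 CPM of non-immune markers, so gene values below come from a stricter set, chosen after the data were seen, with 105 and 192 barcodes and 26.9 and 22.9 CPM of those markers.

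Of the markers of the label outside the rule, Clec10a was higher in the DC2-rule cells than in each of these populations, and others were not. Clec10a, a galactose-binding lectin of DC2, was 381 CPM [351 to 412] in the WT and 321 CPM [298 to 346] in the CD94-KO cells. It was 23.5 and 21.5 CPM in macrophages, 16.8 and 20.7 CPM in monocytes and 39.8 and 70.7 CPM in mature dendritic cells, so the DC2-rule cells stood highest in both libraries. Its relative Mgl2 was 403 and 375 CPM, with 288 and 137 CPM in macrophages and 253 and 422 CPM in mature dendritic cells, so in the CD94-KO library it was highest in mature dendritic cells. Zbtb46, a transcription factor restricted to conventional dendritic cells among myeloid cells, was 20.2 and 22.8 CPM, against 2.78 and 0.694 CPM in macrophages and 73.7 and 60.9 CPM in mature dendritic cells. Itgax, which encodes CD11c, did not set them apart, at 84.6 and 82.1 CPM against 89.8 and 64.9 CPM in macrophages. Sirpa, a surface protein used to sort DC2, was lower than in macrophages (93.8 and 104 against 259 and 214 CPM). No UMI of Fcer1a was found in the DC2-rule cells of either library. Summed marker levels in WT and CD94-KO were 5082 and 6451 CPM for monocytes, of which Lyz2 made up 2471 and 3345 CPM, 975 and 1515 CPM for macrophages, 609.9 and 598 CPM for plasmacytoid cells and 384 and 346 CPM for NK cells. They were 13.5 and 5.93 CPM for T cells, 2.45 and 1.37 CPM for B cells and 15.9 and 30.6 CPM for neutrophils. The plasmacytoid sum was 568 and 632 CPM in macrophages, 433 and 500 CPM in monocytes and 401 and 343 CPM in mature dendritic cells of the stricter set. The NK sum was 887 and 1149, 815 and 706, and 5727 and 4409 CPM in the same populations. Of the DC1 markers outside the rule 5 of 8 measured were at least 2-fold higher than in macrophages in both libraries, where 1.58% of all genes were higher and 3.89% lower, and of the DC2 markers 2 of 8, Clec10a and Ifitm6, with Sirpa and Clec4a2 lower.

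**Figure D1:**
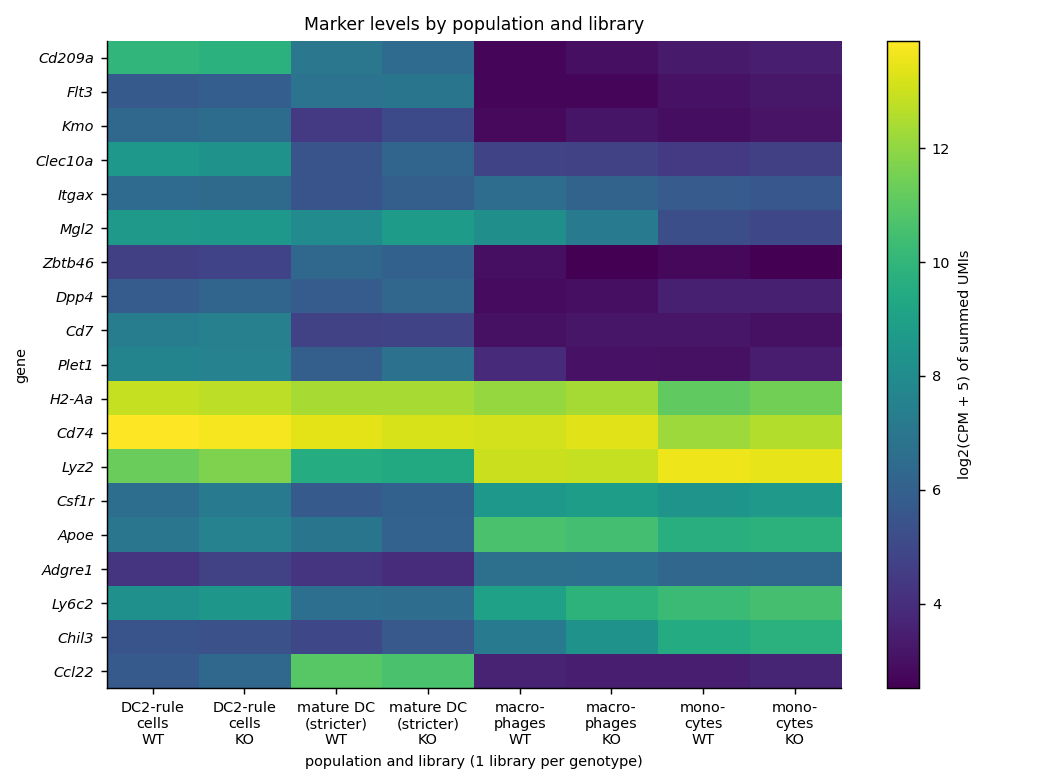
Heat map of log2(CPM + 5) for marker genes (rows) in DC2-rule cells, mature dendritic cells of the stricter set, macrophages and monocytes (columns), each in the WT and CD94-KO library, with colour giving the level of the summed UMIs. Cd209a, Flt3 and Kmo chose the cells and Clec10a did not, and Clec10a is brightest in the DC2-rule columns of both libraries, while Lyz2, Csf1r and Apoe are brightest in macrophages and monocytes.

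The summed UMIs of the cells without any Cd209a UMI, admitted by Flt3 or Kmo, held RNA of genes of the DC1 branch. There were 15 such cells in WT and 19 in CD94-KO. Xcr1, the DC1 receptor for the chemokine XCL1, was 127 CPM in the WT and 78.8 CPM in the CD94-KO cells of this kind, and 0 CPM in both libraries where a cell held 15 or more Cd209a UMIs (46 and 45 cells). Clec9a, which binds dead cells, was 103 and 118 CPM against 14.1 and 11.4 CPM. The integrin gene Itgae was 56.6 and 147 CPM against 1.76 and 3.26 CPM, and Batf3 was 99.0 and 68.1 CPM against 12.3 and 24.4 CPM. An Xcr1 UMI was present in 6 of the 15 WT and 6 of the 19 CD94-KO cells without Cd209a. A Clec9a UMI was present in 8 and 12 of them, an Irf8 UMI in 14 and 18, and a Clec10a UMI in 4 and 7. Whether these cells are of 1 type was not tested. The 2 transcription factors that separate the branches went opposite ways. Irf8 was 972 CPM [861 to 1094] in WT and 964 CPM [852 to 1086] in CD94-KO cells without Cd209a, and 199 CPM [164 to 240] and 195 CPM [162 to 234] in those with most of it, with intermediate values in between. Irf4 was 3.54 and 0 CPM without Cd209a and 40.6 and 42.3 CPM with most of it.

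Cst3, the cystatin C gene and one of the most abundant dendritic cell transcripts, followed Irf8, with 23474 and 21619 CPM in the cells without Cd209a and 4305 and 4007 CPM in those with most of it. Clec10a ran the other way, from 28.3 to 672 CPM in WT and from 183 to 454 CPM in CD94-KO. The bands are ranges of a count and not cell types, and they follow a gene of the rule. Cells without Cd209a were also deeper, with a median of 17269 UMIs in WT and 15046 in CD94-KO against 12004 and 11897 in those with most of it, and the part of depth in these differences was not tested. Without these cells the counts over all genes past the fold given below stayed within 1.5 times of their values. Some counts within single lists moved more. Between genotypes, 6 of 17 chemokine genes were higher in CD94-KO in place of 2, and 6 of 14 cell cycle genes were lower in place of 10 of 17.

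**Figure D2:**
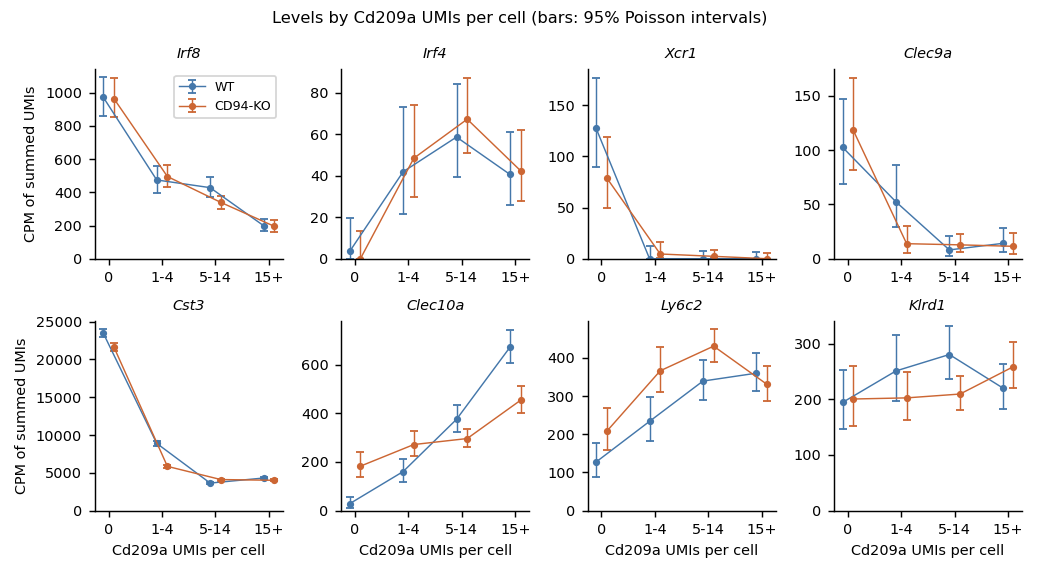
CPM of 8 genes (vertical axes) in DC2-rule cells grouped by Cd209a UMIs per cell (horizontal axes), with WT and CD94-KO as separate points and bars for 95% Poisson intervals of the summed UMIs. Irf8, Xcr1, Clec9a and Cst3 are highest in cells with 0 Cd209a UMIs in both libraries, Irf4 is lowest there, and Klrd1 has no such gradient.

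A second minority carried monocyte genes. Lyz2 was the most uneven transcript of the WT cells after Cst3 at a fixed depth of 1000 UMIs per cell, with a variance over mean of 13.5 in WT and 13.9 in CD94-KO where the median gene had 0.984 and 0.989, and the 10 richest cells held 58.0% and 44.8% of its UMIs. Cells with Lyz2 of at least 5000 CPM numbered 15 in WT and 28 in CD94-KO, and those under 1000 CPM numbered 82 and 106. F13a1, a coagulation factor of monocytes, was 301 and 440.2 CPM in the first against 12.5 and 11.7 CPM in the second. Csf1r, the receptor for the macrophage growth factor, was 184 and 314 CPM against 58.6 and 93.7 CPM. Cd209a did not follow this split in WT, at 926 against 946 CPM, and was 637 against 896 CPM in CD94-KO. Clec10a was lower in the Lyz2-rich cells (174 and 139 against 366 and 374 CPM), as was H2-Aa (4595 and 3860 against 7741 and 7580 CPM). Within 20% of the 1000 CPM limit lay 14 and 17 cells, and within 20% of the 5000 CPM limit 4 and 9, so the classes are ranges and not types.

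The other transcripts that varied most among the cells at fixed depth were Cxcl9 and Cxcl10, which attract T cells through CXCR3, the neutrophil attractant Cxcl2, Ccl17, Il1b, Arg1, Ifitm1, Malat1, Fth1, Actb and the class II genes Cd74, H2-Ab1 and H2-Aa. Of the 15, 13 also ranked so at 2000 UMIs per cell, Arg1 and H2-Aa being the exceptions. Cxcl9 was seen in 47.6% and 42.7% of the cells, and 10 cells held 68.8% and 66.4% of its UMIs. Ccl17, a chemokine for CCR4+ T cells, was seen in 31.0% and 19.1%, with 84.0% and 86.5% in 10 cells. Plet1, a membrane protein gene, was also carried by few cells, and 10 held 89.9% and 75.9% of its UMIs.

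Compared with macrophages, 160 of 10125 genes outside the rules were at least 2-fold higher in DC2-rule cells in both libraries (1.58%) and 394 were lower (3.89%), with the fold taken on log2(CPM + 5). After scaling by trimmed means (TMM) these became 217 and 283, and the scaling shifted all differences by 0.18 in WT and 0.13 in CD94-KO on the log2 scale. Cd209d, a second gene of the DC-SIGN family, led the ranking with 138 and 169 CPM against 0.309 and 0.867 CPM. Cd7, better known from lymphocytes, was 154 CPM [136 to 175] and 170 CPM [153 to 188] against 3.09 and 4.16 CPM. Dpp4, the peptidase CD26 of conventional dendritic cells, was 50.9 and 70.7 CPM against 2.16 and 2.95 CPM. Fcgrt, the neonatal Fc receptor, was 136 and 131 CPM against 19.7 and 20.3 CPM. The transcription factor genes Bcl11a (39.2 and 47.5 against 2.16 and 3.99 CPM) and Lmo1 (44.7 and 34.2 against 1.54 and 2.08 CPM) were among the 20 highest, as was the inhibitory receptor gene Btla (30.6 and 24.2 against 1.54 and 0.867 CPM). The remaining 13 of the 20 were Plet1, Clec10a, Klrd1, Ccl17, Fcor, Sept3, Ifitm6, Ifitm1, Vrk1, Tnni2, Pkib, Ccl22 and H2-Oa.

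Macrophage genes were lower as a group, where 3.89% of all genes were lower and 1.58% higher. Of 15 measured macrophage markers outside the rule, 13 were at least 2-fold lower and 0 higher, with a median difference of -3.12 in WT and -2.46 in CD94-KO on the log2 scale, where the median of all genes was -0.15 and -0.10. Apoe, which carries lipid, was 122 and 180.3 CPM against 1558 and 1453 CPM. The lipid receptor gene Trem2 was 6.13 and 16.4 CPM against 202 and 165 CPM, and outside the list the scavenger receptor gene Msr1 was 40.5 and 38.3 CPM against 375 and 348 CPM. Both receptors for the complement fragments C5a and C3a were lower, C5ar1 at 15.3 and 15.1 against 160 and 164 CPM and C3ar1 at 21.5 and 15.1 against 170 and 182 CPM. Nos2, the inducible nitric oxide synthase, was 4.29 and 19.6 CPM against 97.5 and 220 CPM.

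C-type lectin, chemokine, glycolysis and Toll-like receptor genes also had more members lower than higher, where 3.89% of all genes were lower and 1.58% higher. Of 17 C-type lectin genes outside the rule 8 were lower, among them Clec4e and Clec5a, and 5 were higher, Cd209d, Cd209e, Clec10a, Clec4b1 and Clec9a. Of 18 chemokine genes 10 were lower, among them Cxcl2 (1234 and 1265 against 8019 and 7027 CPM), and 2 were higher, Ccl17 (699 and 374 against 100 and 13.2 CPM) and Ccl22 (48.4 and 73.9 against 7.10 and 5.90 CPM). Of 21 glycolysis and hypoxia genes 9 were lower and 0 higher, with Slc2a1, Vegfa and Bnip3 among them. Of 21 Toll-like receptor genes and adaptors 6 were lower and 0 higher. The lipopolysaccharide receptor genes Tlr4 (12.3 and 8.21 against 40.4 and 47.2 CPM) and Cd14 (555 and 638 against 2286 and 2459 CPM) were among these. Of 14 genes of MHC class II presentation 3 were higher, H2-DMb2, H2-Oa and H2-Ob, and the protease gene Lgmn was lower. H2-Oa and H2-Ob encode the chains of H2-O, which tempers peptide loading, and H2-Ob was 49.6 and 41.5 CPM against 4.94 and 6.94 CPM. Of 20 dendritic cell transcription factor genes Irf4, Batf3, Zbtb46 and Ahr were higher and Zeb2 was lower. Irf4 was 39.8 and 47.9 CPM against 5.86 and 7.46 CPM. Kynu and Ahr were higher of 5 measured genes of the kynurenine list.

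**Figure D3:**
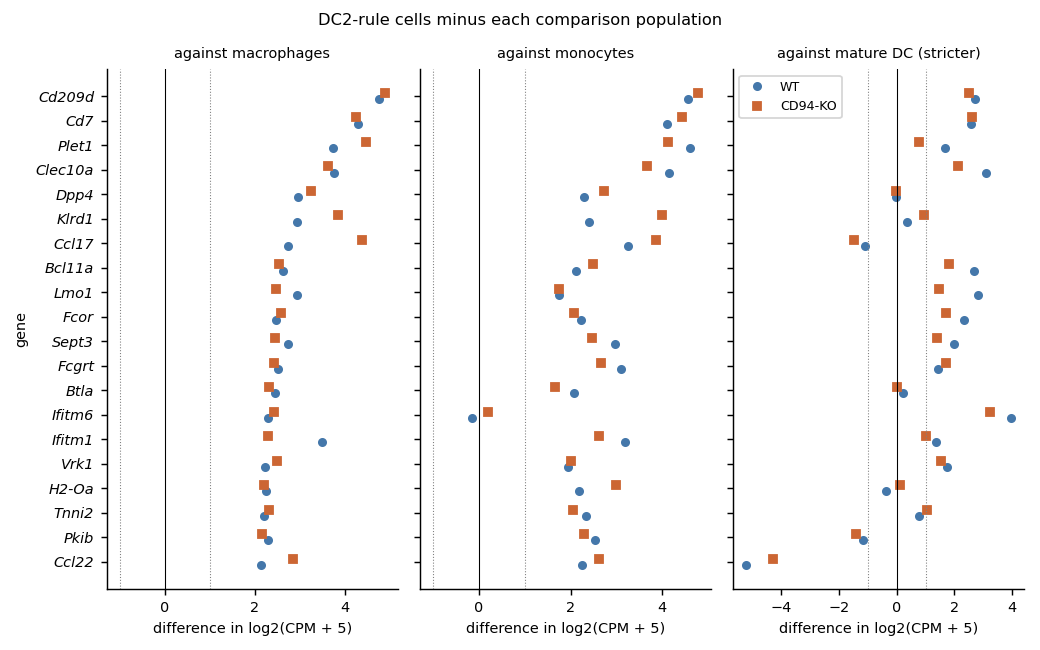
Difference in log2(CPM + 5) (horizontal axes) of DC2-rule cells minus macrophages, monocytes and mature dendritic cells of the stricter set for the 20 genes ranked highest against macrophages (rows), with WT and CD94-KO as separate points and dotted lines at 2-fold. Every point of the first panel lies right of the upper 2-fold line because the genes were ranked on it, while Ifitm6 lies between the lines against monocytes, and Ccl22, Ccl17 and Pkib lie left of the lower line against mature dendritic cells.

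Against monocytes, 155 of 10429 genes were at least 2-fold higher in both libraries (1.49%) and 353 lower (3.38%), or 191 and 309 after TMM scaling. MHC class II separated these populations more than it did the macrophages. Of 14 genes 8 were higher, with H2-Aa at 7565 and 6954 CPM against 2189 and 2842 CPM and the invariant chain gene Cd74 at 15158 and 13487 CPM against 4779 and 6149 CPM. H2-DMb2, a subunit of the peptide exchange factor, was 125 and 110 CPM against 11.3 and 11.2 CPM, and the creatine kinase gene Ckb was 415 and 294 CPM against 41.8 and 38.2 CPM. Of 17 C-type lectin genes 6 were higher and 7 lower. The calprotectin genes were lower, S100a8 at 0.613 and 4.56 against 195 and 219 CPM and S100a9 at 1.23 and 8.67 against 209 and 260.5 CPM. Chil3, a chitinase-like gene of monocytes, was 39.2 and 35.6 against 724 and 875 CPM. Ly6c2 was not used to choose the cells and was not absent from them, at 291 CPM [266 to 319] and 361 CPM [337 to 388] against 1229 and 1466 CPM in monocytes, for which it was a rule gene. The chemokine receptor gene Ccr2 stood at 230 and 289 CPM against 433 and 478 CPM.

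Against mature dendritic cells of the stricter set, 339 of 9084 genes were higher (3.73%) and 490 lower (5.39%), and with the wider rule 514 of 10962 (4.69%) and 1232 (11.2%). With TMM scaling the wider rule gave 743 and 830. All 10 measured mature markers outside the rule were lower, including Ccl22 (48.4 and 73.9 against 1971 and 1553 CPM) and Ccl5 (55.2 and 191 against 5063 and 3963 CPM). Il12b, the shared subunit of interleukins 12 and 23, had 1 UMI in the WT and 0 in the CD94-KO cells against 272 and 282 CPM. Of 15 costimulatory and coinhibitory ligand genes 7 were lower and 2 higher. Cd40 was 106 and 102 CPM against 270 and 245 CPM, Cd274, which encodes PD-L1, was 167 and 152 CPM against 404 and 452 CPM, and Pdcd1lg2, which encodes PD-L2, was 39.8 and 40.6 CPM against 141 and 152 CPM. Cd86 did not pass the fold, at 276 and 266 against 331 and 318 CPM. Irf8, Id2, Batf3, Relb, Zbtb46 and Nr4a3 were lower of 20 transcription factor genes, and 0 were higher.

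Several antigen-handling and interferon response genes were higher than in mature dendritic cells, where 3.73% of all genes were higher and 5.39% lower. H2-DMa, H2-DMb1 and March1 were higher of 14 genes of MHC class II presentation and 0 were lower, with H2-DMb1 at 934 and 746 CPM against 183 and 175 CPM. Of 17 C-type lectin genes 7 were higher and 1 lower, the uptake receptor gene Ly75 (3.06 and 6.39 against 174 and 177 CPM). Of 6 Fc receptor genes Fcgr1, Fcgr3, Fcer1g and Fcgrt were higher and 0 lower. Of 26 type I interferon response genes 9 were higher and 0 lower, with medians of 0.88 in WT and 1.28 in CD94-KO where all genes had 0.03 and 0.05. Monocyte markers were higher too, 7 of 10 measured, with Lyz2 at 2471 and 3345 against 747 and 677 CPM. Their part in the other differences was not tested. Of the 5 measured genes of the kynurenine pathway beyond Kmo 0 passed the fold. Ido1 and Ido2, which encode the enzymes that start the pathway, had 0 UMIs in DC2-rule cells of both libraries, which allows at most 1.84 and 1.37 CPM. Kynu, the next enzyme after Kmo, was 20.2 and 17.3 CPM against 24.9 and 30.2 CPM.

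Klrd1, the gene altered in the CD94-KO mice, was detected in the DC2-rule cells of both libraries at a similar level. It was 240 CPM [216 to 265] in WT and 221 CPM [202 to 241] in CD94-KO, a ratio of 0.922 [0.805 to 1.06]. In NK cells, taken after the data were seen as barcodes with at least 3 UMIs of Ncr1, Klrb1c and Klre1, it was 642 and 291 CPM (ratio 0.454 [0.421 to 0.489]). In macrophages it was 26.8 and 10.8 CPM, in monocytes 41.6 and 9.09 CPM, and in mature dendritic cells of the stricter set 187 and 113 CPM. The NK, macrophage and monocyte values were therefore lower in the CD94-KO library by 2-fold or more, and the interval in DC2-rule cells spans 1. The reads come from the 3′ end of transcripts, and where the alteration lies is not known here, so the level of this RNA does not check whether CD94 protein is made. A difference between the cell types in their response to the genotype cannot be tested with 1 library each.

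Other NK transcripts were measured in the same cells. Nkg7, a granule gene of NK cells, was 74.2 and 26.9 CPM in the DC2-rule cells, which gives 3.23 and 8.20 Klrd1 UMIs per Nkg7 UMI. In NK cells there were 0.299 and 0.152 Klrd1 UMIs per Nkg7 UMI, and in macrophages 0.372 and 0.146. Mature dendritic cells of the stricter set had 1.24 and 1.58. Ncr1, the NK receptor NKp46, was 5.52 and 1.37 CPM in the DC2-rule cells. A Klrd1 UMI was present in 57.1% [48.0 to 65.9] of the WT and 57.9% [50.3 to 65.2] of the CD94-KO DC2-rule cells, and in 16.2% and 6.45% of macrophages at a median depth of 14232.5 and 12632 UMIs. Thinned to 1000 UMIs per cell, the shares were 16.7% and 16.9% in DC2-rule cells and 0.490% and 0.496% in macrophages. In mature dendritic cells of the stricter set, at median depths of 9355 and 9296.5 UMIs, the shares were 38.1% and 32.8%. After thinning they were 6.67% and 8.85%. The Klrd1 share in DC2-rule cells lay above that of macrophages in both libraries. Leaving out the cells with UMIs of other lineages gave a log2 difference between the libraries of -0.01 in place of -0.12. Thinning to 1000 UMIs, which leaves few Klrd1 UMIs, gave 0.86, so the sign of the difference is not settled.

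**Figure D4:**
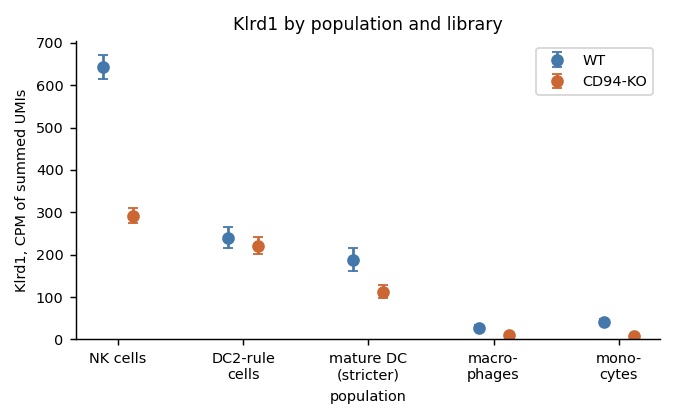
Klrd1 level (vertical axis, CPM of summed UMIs) in NK cells, DC2-rule cells, mature dendritic cells of the stricter set, macrophages and monocytes (horizontal axis), WT and CD94-KO side by side, with bars for 95% Poisson intervals. The CD94-KO point lies below the WT point in NK cells (291 against 642 CPM), and the intervals of the DC2-rule cells overlap (240 and 221 CPM).

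Other receptors of the NK gene complex were present as well. Klrk1, which encodes NKG2D and does not pair with CD94, was 196 and 181 CPM, with a UMI in 75.4% and 70.8% of the cells. Klrb1b was 146 and 149 CPM. Klrd1, Klrk1 and Klrb1b were at least 2-fold higher than in macrophages and in monocytes, and Klra2 was lower, of 11 measured genes of the family (shares of all genes higher: 1.58% and 1.49%). Against mature dendritic cells of the stricter set 0 of 11 were higher and 0 lower, and Klrk1 had a UMI in 63.8% and 54.7% of those cells. Klrc1, which encodes the partner NKG2A, was 20.8 CPM from 9 cells in WT and 4.56 CPM from 6 cells in CD94-KO, and Klrc2 was 7.97 and 3.65 CPM. These genes are alike in sequence, and how their reads were split is not known. H2-T23, whose product Qa-1 is the ligand of CD94 with NKG2A, was 432 CPM [401 to 465] and 426 CPM [399 to 454] (ratio 0.985 [0.893 to 1.09]).

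The DC2-rule cells with and without a Klrd1 UMI were set side by side as a description. Lyz2 was 1071 CPM in the 72 WT cells with a Klrd1 UMI and 4655 CPM in the 54 without, and 1875 and 5448 CPM in the 103 and 75 CD94-KO cells. Cd7 was 209 against 69.0 CPM and 223 against 95.4 CPM, and Irf4 49.3 against 25.1 CPM and 66.7 against 21.1 CPM. Irf8 was lower with Klrd1, 380 against 562 CPM and 299 against 567 CPM. Cd209a was 987 against 1072 CPM in WT and 949 against 750 CPM in CD94-KO, with no common direction. A Klrd1 UMI was present in 2 of the 15 WT and 8 of the 28 CD94-KO cells rich in Lyz2, and in 5 of the 15 and 7 of the 19 cells without Cd209a, which are rich in Irf8, and the part of these cells in the gaps was not tested. Cells with a Klrd1 UMI were slightly deeper, at medians of 12360.5 against 11122 UMIs and 11948 against 11096.

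Between the genotypes, most genes of the DC2-rule cells lay within 1.5-fold. Of 7815 genes with at least 20 UMIs, 410 were at least 1.5-fold higher in CD94-KO (5.25%) and 234 lower (2.99%), but 312 and 314 after TMM scaling, which shifts all values by -0.05, so the surplus of higher genes was not seen under that scaling. None of the rule genes passed 1.5-fold: Cd209a was 1020 CPM [971 to 1070] and 867 CPM [829 to 907], Flt3 48.4 and 54.3 CPM and Kmo 74.2 and 86.3 CPM. The rule required UMIs of these genes in every cell of both libraries, so their levels are partly set by it and are not a finding. Of 20 dendritic cell transcription factor genes 0 were higher and 0 lower, and of 8 measured DC2 markers outside the rule likewise 0 and 0. Of 14 genes of MHC class II presentation 1 was higher, the class II transactivator gene Ciita (26.4 and 47.9 CPM, ratio 1.82 [1.26 to 2.66]), and 0 were lower.

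Some interferon response genes were higher in CD94-KO and 0 were lower. Of all genes 5.25% were higher and 2.99% lower. Of 25 interferon gamma response genes 7 were higher, with a median difference of 0.22 where all genes had 0.04. Irf1, a transcription factor of this response, was 169 CPM [149 to 190] in WT and 283 CPM [261 to 306] in CD94-KO (ratio 1.68 [1.45 to 1.94]), and the 10 richest cells held 28.4% and 21.3% of its UMIs. Irgm1, a GTPase gene, was 87.0 and 157 CPM (ratio 1.81 [1.48 to 2.22]), and Socs1, a feedback inhibitor, was 26.4 and 63.9 CPM (ratio 2.42 [1.71 to 3.50]). All the other barcodes of the libraries had ratios of 1.22 for Irf1, 1.74 for Irgm1 and 1.56 for Socs1. Those barcodes pool every other cell type, and their make-up differed between the libraries. Monocytes were 14.6% of WT and 21.4% of CD94-KO barcodes past the limits, and macrophages 6.35% and 9.10%. Ratios in the other barcodes, here and below, therefore mix make-up with level. Of 25 type I interferon response genes 4 were higher, Ifit1, Ifit2, Ifit3 and Rsad2, with a median of 0.28. Rsad2, an antiviral enzyme gene, was 32.5 and 120 CPM (ratio 3.68 [2.73 to 5.04]), but 10 of the 178 CD94-KO cells held 89.7% of its UMIs, and it was detected in 18.3% of WT and 16.3% of CD94-KO cells. With each cell weighted the same, the medians were 0.09 for the interferon gamma list and 0.13 for the type I list, and leaving out cells with UMIs of other lineages gave 1 lower gene in each. After thinning to 1000 UMIs, 3 of 12 type I genes were higher and 2 lower, and of 15 interferon gamma genes 2 were higher and 0 lower. Of all 2021 genes measured after thinning, 250 were higher and 168 lower.

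Some genes of macrophages and monocytes were also higher in CD94-KO, where 5.25% of all genes were higher and 2.99% lower. Of 13 macrophage markers outside the rule 5 were higher, Arg1, Nos2, Spp1, Trem2 and Pf4, and 0 lower, with a median of 0.55. With the C1q genes, which the rule limits, the median was 0.44, and it became 0.02 with each cell weighted the same and -0.19 after thinning to 1000 UMIs. Mmp12, a macrophage elastase gene, was 14.7 CPM [9.43 to 21.9] in WT and 85.3 CPM [73.6 to 98.5] in CD94-KO, and the 10 richest cells held 62.5% and 87.2% of it. Arg1, which breaks down arginine, was 211 and 461 CPM (ratio 2.19 [1.93 to 2.48]). Here 10 cells held 89.2% and 90.1%, and all other barcodes had a ratio of 2.02. Of 10 monocyte markers Hp, F13a1, Vcan and Csf1r were higher and 0 lower, with a median of 0.43. Without cells holding UMIs of other lineages 1 was higher and 1 lower, with a median of 0.09. A rule sum of at least 5 left 2 higher, equal weight of cells 1 and thinning 0. Csf1r, seen in 53.2% and 58.4% of cells, was 91.9 and 142 CPM (ratio 1.55 [1.27 to 1.89]), with a ratio of 1.49 in the pooled other barcodes. The Lyz2-rich cells described above were 15 of 126 in WT and 28 of 178 in CD94-KO. Their part in these ratios was not tested.

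Among the 15 genes ranked highest, a further group was spread over many cells. Nupr1, a stress-response gene, was 25.1 and 56.6 CPM (ratio 2.25 [1.57 to 3.29]), seen in 21.4% and 39.3% of cells, while in the other barcodes its ratio was 0.739. Trip11, Klf3, Sptbn1 and Mier1 had ratios of 2.04, 1.97, 1.93 and 1.89, and 1.03, 1.24, 0.905 and 1.10 in the other barcodes. Sptbn1, a spectrin gene, was seen in 27.8% and 47.2% of cells and Mier1 in 38.1% and 53.9%. Tnfsf9, the ligand of the costimulatory receptor 4-1BB, was 26.4 and 51.1 CPM (ratio 1.94 [1.35 to 2.82]). The other genes of the 15 were Gla, Hilpda, Ccl5, Ccl24 and those named above. Ccl24, a chemokine for eosinophils, was 102 and 191 CPM (ratio 1.88 [1.57 to 2.26]). The 10 richest cells held 98.2% and 94.5% of it, and all other barcodes had a ratio of 6.50.

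**Figure D5:**
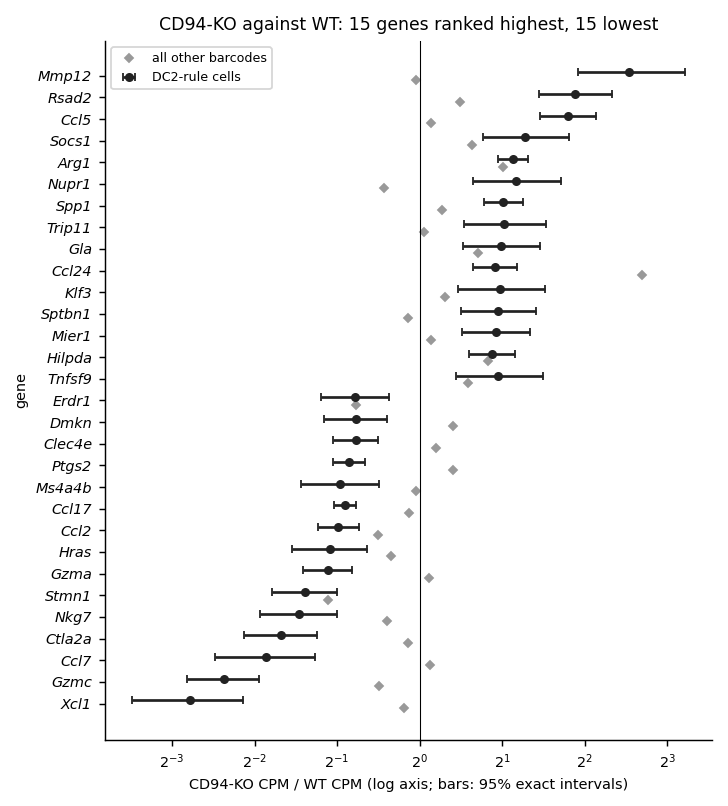
Ratio of CD94-KO to WT CPM (horizontal log axis) for the 15 genes ranked highest and the 15 ranked lowest in DC2-rule cells (rows), as black points with 95% exact conditional intervals, and in all other barcodes as grey diamonds. Mmp12 (5.80) and Xcl1 (0.145) are the extremes of the black points, and the diamond of Erdr1 (0.584) lies on its black point (0.583).

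Of the genes lower in CD94-KO, Ccl17 had the most counts. It was 699 CPM [659 to 741] in WT and 374 CPM [349 to 401] in CD94-KO (ratio 0.535 [0.489 to 0.586]), with a UMI in 31.0% and 19.1% of cells. Its ratio was 0.131 in macrophages and 0.304 in monocytes, but 0.916 in all other barcodes. Of 17 chemokine genes Ccl2, Ccl7, Ccl12 and Ccl17 were lower and Ccl5 and Ccl24 higher. Of all genes 2.99% were lower and 5.25% higher. Ccl2, which attracts monocytes, was 205 and 104 CPM (ratio 0.506 [0.426 to 0.601]) with 89.2% of the WT UMIs in 10 cells. Ptgs2, the inducible cyclooxygenase, was 321 and 177 CPM (ratio 0.552 [0.483 to 0.631]), and the lectin gene Clec4e was 160 and 93.6 CPM (ratio 0.585 [0.485 to 0.705]). Hras was 66.8 and 31.5 CPM (ratio 0.471 [0.343 to 0.643]) and was seen in 50.8% of WT and 28.7% of CD94-KO cells.

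Genes known from lymphocytes and from dividing cells were also lower. Xcl1, Gzmc, Ctla2a, Nkg7, Gzma and Ms4a4b were lower, at ratios of 0.145 to 0.514, and in WT 10 cells held between 79.4% and 95.1% of the UMIs of each. Nkg7 was also lower in CD94-KO in monocytes (124 and 33.2 CPM) and in mature dendritic cells of the stricter set (151 and 71.3 CPM). In macrophages it was not (72.2 and 73.5 CPM). Gzma, a granzyme of NK and T cells, was 153 and 70.7 CPM in the DC2-rule cells, against 4221 and 5078 CPM in NK cells. Of the 8 measured NK markers 4 were lower and 3 higher, and their summed level was 384 and 346 CPM. Ms4a4b turned to a log2 difference of 0.41 when cells with UMIs of other lineages were left out, and Gzma to 0.62 when the rule sum had to reach 5. Of 17 measured cell cycle genes 10 were lower and 0 higher, with a median of -0.65, where 2.99% of all genes were lower. With a rule sum of at least 5, 3 of 12 were lower and 2 higher (median -0.15), and without cells of other lineages 4 of 14 were lower and 1 higher (median -0.33). At least 10 UMIs of 10 mitotic genes were found in 3 cells of each library, and these held 80.5% of such UMIs in WT and 56.3% in CD94-KO. Stmn1 was 98.1 and 37.4 CPM (ratio 0.382 [0.289 to 0.501]), with 0.464 in all other barcodes, and its log2 difference became 0.26 with a rule sum of 5. Without the cells lacking Cd209a 6 of 14 cell cycle genes were lower.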

How the data were processed

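The authors deposited raw UMI counts, 1 matrix per library. The matrix headers record Cell Ranger 5.0.0. The libraries were 3′ libraries and empty barcodes had been taken out, per the labels' protocols. The submitters' processing notes name mm10 and Seurat 4.0, with no role. Barcodes with at least 1000 UMIs and under 10% mitochondrial UMIs were used. Counts were summed per population and library, scaled to CPM and compared on log2(CPM + 5). With 1 library per group no test was made. Sums have exact Poisson, shares Clopper-Pearson and ratios exact conditional binomial intervals, all at 95%. UMIs of 1 cell are not independent, which these intervals ignore.

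A gene counted as past the fold at 2-fold in the same direction in both libraries between populations (at least 20 UMIs, rule genes left out), or at 1.5-fold between genotypes. Macrophages had at least 20 C1q UMIs and a sum of Cd209a, Flt3 and Kmo of at most 2, with the other limits as for the DC2-rule cells. Monocytes had at least 3 UMIs of Ly6c2, Hp and F13a1 and at least 5 of Lyz2. The stricter mature set needed at least 3 UMIs of Ccr7, Cacnb3 and Nudt17 and at most 2 of Sparc, Col1a1, Col1a2 and Col3a1. Genes named were those of the rule and marker lists, up to 4 highest and all past the fold in each list, the 20 highest and 12 lowest against macrophages, 12 each way against the others, 15 each way between genotypes, and the 15 most variable. Ranked genes needed 100 UMIs, and 50 CPM between genotypes. Mitochondrial, ribosomal protein, haemoglobin, immunoglobulin, T cell receptor, Xist, Y-linked and unnamed genes were left out of the rankings. Not all genes named by the rule are printed. The rule for the cells and the 36 gene lists were chosen with earlier results of these data known, and 446 of 453 list symbols were found, the others not used here. No doublet caller was run, and an alternative left out cells with UMIs of other lineages. RefSeq promoter windows (GRCm38.p6) matched for 4 of 6 genes. Calculations used Python 3.11.15, numpy 2.4.6, scipy 1.17.1 and pandas 2.3.3, and TMM factors came from edgeR 4.0.16. The counting of genes was tested on simulated data.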

Additional observations from a re-analysis of the deposited data

Results flagged for a closer look

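Of the named genes, 3 had a plain CPM ratio between genotypes past 1.5-fold in DC2-rule cells and past it in the opposite direction in macrophages. Each genotype had 1 library, and the difference between the cell types was not tested. Mmp12 had a CD94-KO to WT ratio of 5.80 [3.78 to 9.28] in DC2-rule cells and 0.406 [0.375 to 0.439] in macrophages. Spp1, the osteopontin gene, had 2.02 [1.73 to 2.38] and 0.606 [0.580 to 0.633]. Cxcl3, a neutrophil attractant, had 1.59 [1.10 to 2.34] and 0.564 [0.504 to 0.631]. On log2(CPM + 5), the scale of the counts above, Cxcl3 did not pass 1.5-fold in DC2-rule cells. In DC2-rule cells of the CD94-KO library 10 cells held 87.2%, 88.1% and 96.7% of the UMIs of these genes.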

How the results depend on the processing

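No paired analysis was possible because each genotype had 1 library. For the counts, 11 settings were planned, and the stricter mature set and the cells with a Cd209a UMI were added after the data were seen. The share of cells in WT became 2.75% with a minimum of 500 UMIs. Shares in WT and CD94-KO became 3.21% and 3.14% with a rule sum of at least 5, and 3.08% and 3.23% without cells holding UMIs of other lineages. With a pseudocount of 1 CPM, 273 genes were higher and 717 lower than in macrophages, 2218 lower than in mature dendritic cells, 309 higher and 610 lower than in monocytes, and 705 higher and 463 lower in CD94-KO. Cells thinned to 1000 UMIs gave 94 genes higher than in macrophages, 265 higher and 385 lower than in mature dendritic cells and 250 higher in CD94-KO. A filter of 100 UMIs left 120 higher and 52 lower in CD94-KO, and no filter 370 lower. Each cell weighted the same gave 739 genes lower than in mature dendritic cells, and the stricter set 339 higher and 490 lower. The filters change the number of genes counted. The cause of the other changes was not tested.

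Of 400 list medians under another setting, CD94-KO minus WT on the log2 scale, 42 had the opposite sign to the reported one, in 20 of 36 lists, and 4 of these had been past 1.5-fold. Those 4 and the ranked genes that turned are given here. With a rule sum of at least 5 the median of the NK markers was 0.019, Gzma 0.62 and Stmn1 0.26. Without cells of other lineages the NK median was 0.057, the neutrophil median -0.029 and Ms4a4b 0.41. With at most 1 C1q UMI Gzmc was 0.13, and after thinning the NK median was 1.47, from 1 gene. Of the 15 genes ranked highest all 15 kept their direction under each setting that could be run and 8 stayed past 1.5-fold. Of the 15 ranked lowest 11 kept their direction and 10 stayed past it. Depth limits single cells to abundant genes, and genes near 20 UMIs have wide intervals.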
